A study of Mus musculus with 4 samples.

Results

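The sodium pump and the channels that set the excitability of the muscle surface membrane were followed through 5 genes in mouse soleus muscle. They were chosen by name: Atp1b1, Atp1b2, Fxyd1, Clcn1, Scn4a and Kcnj11, wherever a probe set of the array carried exactly 1 gene symbol and it was one of these 6. The choice took in 8 probe sets out of 12488, of which 10855 had 1 symbol. Atp1b1, Atp1b2 and Clcn1 had 2 probe sets each, Fxyd1 and Kcnj11 had 1 each, and no value was used here for Scn4a. Total RNA of soleus was hybridised on 4 arrays, 2 from HSL-null mice and 2 from wildtype mice. HSL, hormone-sensitive lipase, is encoded by Lipe and hydrolyses stored fat. All mice were female and aged 6 months, and for each genotype the muscle of 5 animals had been pooled and measured as a technical duplicate. Neither the strain nor the way the gene was inactivated is given in the sources used here.

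Since each genotype was 1 pool, animals could not be compared by a test, and every error below is the spread of 2 arrays of one RNA pool. In a pool of whole muscle, fewer cells of a type and less RNA per cell cannot be told apart. Lipe measured 16.2 and 19.4 on the HSL-null arrays, against 71.4 and 70.2 on the wildtype arrays, which goes with the labels. Slow-fibre markers were high in both pools: the summed intensity of their 10 genes was 39139 and 37417 on the HSL-null arrays and 38378 and 36281 on the wildtype arrays. The highest intensity on an array lay between 5646 and 6183, well above every value of the 5 genes.

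The sodium pump exchanges intracellular sodium for extracellular potassium and so restores the gradients that each action potential runs down. Its catalytic alpha subunit needs a beta subunit to fold and reach the surface, and a small FXYD protein tunes its affinity for sodium. In skeletal muscle the voltage-gated sodium channel Scn4a carries the action potential, the chloride channel Clcn1 stabilises the resting potential, and Kcnj11 forms the pore of the ATP-sensitive potassium (KATP) channel, which opens when cellular energy runs low. In rat muscle the beta subunit encoded by Atp1b1 is the main form of slow oxidative fibres and the one encoded by Atp1b2 that of fast glycolytic fibres.

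Values are the deposited linear intensities, already scaled so that each array had a trimmed mean of 100. For differences, intensities under 5.70, the 25th percentile of all values, were raised to it before the log2 transform. A probe set was above the filter when its mean over the 4 arrays was at least 27.6, the median of all probe sets other than controls. The word separated is used of a probe set for which both HSL-null arrays lay on the same side of both wildtype arrays and even the closest of the 4 array pairs differed by at least 1.5-fold. Of the 8 probe sets, 4 were above the filter, 1 each for Atp1b1, Fxyd1, Clcn1 and Kcnj11, and 4 were below it, among them both probe sets of Atp1b2.

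Of the 4 probe sets above the filter, 0 were separated, beside 0.451% of all 6211 probe sets above it. The HSL-null arrays lay above both wildtype arrays for 3 of the 4 (Atp1b1, Clcn1 and Kcnj11) and overlapped them for Fxyd1. Over all probe sets above the filter the arrays did not overlap for 40.6%, with 19.5% higher and 21.1% lower in HSL-null, so that a lack of overlap alone is common in this table. With median centring 13.7% were higher and 27.1% lower, and Clcn1 overlapped, which left 2 of the 4. The clearest differences were those of Atp1b2, on a dim probe set, and of Kcnj11.

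**Figure D1:**
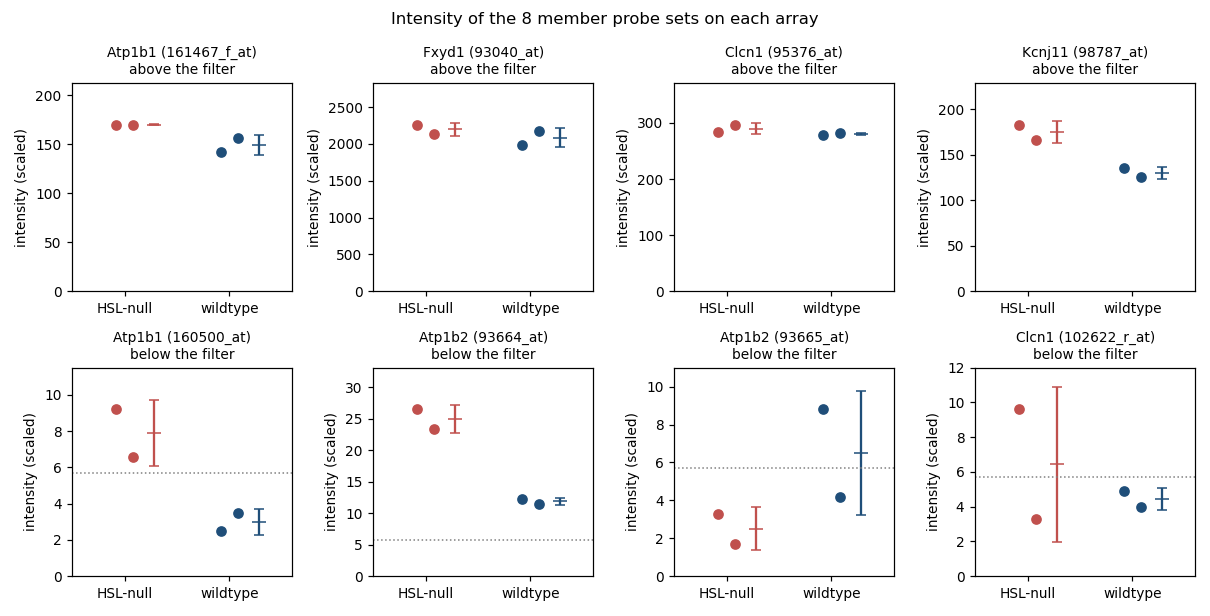
Intensity of the 8 probe sets on each array, HSL-null on the left and wildtype on the right of each panel. Points are single arrays, bars are the mean ± SD of the 2 arrays, every axis starts at 0 and the dotted line in the lower row is the floor of 5.70. The upper row holds the 4 probe sets above the filter, where Kcnj11 shows the widest relative gap (166 to 183 in HSL-null, 125 to 135 in wildtype). In the lower row Atp1b2 (93664_at) stands at 23.4 to 26.5 in HSL-null and 11.5 to 12.3 in wildtype.

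Atp1b1 encodes the beta subunit that is most widely used by the pump. Its brighter probe set, 161467_f_at, measured 169.9 and 169.1 on the HSL-null arrays, against 141.9 and 156.3 on the wildtype arrays. Both HSL-null arrays were higher, by 1.08-fold on the closest array pair and 1.20-fold on the widest. The mean was 170 ± 0.566 in HSL-null and 149 ± 10.2 in wildtype (SD, n = 2 arrays), a log2 difference of 0.19 ± 0.070 (SE of duplicates). The wildtype duplicates differed from each other by 0.14 on the same log2 scale, close to the difference between the pools. The suffix _f marks a probe set that can share probes with related sequences, so that its signal may not be of Atp1b1 alone.

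The second probe set of Atp1b1, 160500_at, was dim. It measured 9.2 and 6.6 on the HSL-null arrays, against 2.5 and 3.5 on the wildtype arrays. Both wildtype values lay under the floor, so that the log2 difference of 0.45 ± 0.24 starts from the floor and not from a measured level. It was 1.40 with the floor at the 10th percentile. Both probe sets of the gene were thus higher on the HSL-null arrays, while the size of the difference on the dim one depended on the floor and on single arrays, at 0.21 without HSL-null array 1 and 0.69 without HSL-null array 2.

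Atp1b2 encodes the beta subunit also known as the adhesion molecule on glia. Probe set 93664_at measured 26.5 and 23.4 on the HSL-null arrays, against 12.3 and 11.5 on the wildtype arrays. The groups did not overlap, and the closest array pair still differed by 1.90-fold. The mean was 24.95 ± 2.19 in HSL-null and 11.9 ± 0.566 in wildtype (SD, n = 2 arrays), 2.09-fold higher in HSL-null with a log2 difference of 1.07 ± 0.10 (SE of duplicates). All 4 values lay above the floor, but their mean of 18.4 was below the filter. Among the 6211 probe sets below the filter 2.38% were separated, with 1.72% higher and 0.660% lower in HSL-null, against 0.451% (0.225% in each direction) of those above it. A lack of overlap was seen for 19.0% of them, with 12.0% higher and 7.04% lower. A separated call at this brightness was therefore several times as frequent as among brighter probe sets.

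The other probe set of Atp1b2, 93665_at, did not show the higher level. It measured 3.3 and 1.7 on the HSL-null arrays, against 8.8 and 4.2 on the wildtype arrays. Of these values 1 lay above the floor, on wildtype array 1, and the log2 difference was -0.31 ± 0.31. Without wildtype array 1 it was 0, since all values left were at the floor. Without wildtype array 2 it was -0.63, and with the floor at the 10th percentile -1.36, both without overlap and lower in HSL-null. The 2 probe sets of Atp1b2 therefore disagree, with the readable one higher in HSL-null and the other at or near the floor.

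Fxyd1 encodes phospholemman, the FXYD protein of heart and skeletal muscle that restrains the pump until it is phosphorylated. Its probe set, 93040_at, measured 2263.8 and 2135.8 on the HSL-null arrays, against 1991.1 and 2174.9 on the wildtype arrays. The groups overlapped, since HSL-null array 2 was lower than wildtype array 2. The mean was 2200 ± 90.5 in HSL-null and 2083 ± 130 in wildtype (SD, n = 2 arrays), and the log2 difference of 0.080 ± 0.076 was no larger than the gap of 0.13 between the wildtype duplicates.

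Clcn1 encodes the chloride channel that carries most of the resting membrane conductance of muscle fibres, and its loss causes myotonia. Its bright probe set, 95376_at, measured 283.0 and 297.1 on the HSL-null arrays, against 279.1 and 282.1 on the wildtype arrays. The HSL-null arrays were both higher, but the closest pair differed by 0.0046 on the log2 scale, and the mean log2 difference was 0.047 ± 0.036. This is smaller than the gap of 0.070 between the HSL-null duplicates. The second probe set, 102622_r_at, measured 9.6 and 3.3 on the HSL-null arrays, against 4.9 and 4.0 on the wildtype arrays. Of these 1 value was above the floor, on HSL-null array 1, and the log2 difference was 0.38 ± 0.38 with overlap. It was 0 without HSL-null array 1, and 0.75 without HSL-null array 2, where the arrays no longer overlapped.

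The promoter of Clcn1 is shown for its muscle-type elements, beside those of Atp1b1 and Fxyd1, the other members above the filter with an entry in the RefSeq promoter table (GRCm38.p6). Each line gives the 120 bases just before the annotated start on the strand of the gene, with motif matches in capitals. The intervals are chr6:42286565-42286684 (plus strand) for Clcn1, chr1:164458356-164458475 (minus strand) for Atp1b1 and chr7:31054854-31054973 (minus strand) for Fxyd1.
Clcn1: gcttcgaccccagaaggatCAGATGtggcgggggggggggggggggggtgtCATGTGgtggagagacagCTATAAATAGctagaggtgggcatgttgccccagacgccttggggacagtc
Atp1b1: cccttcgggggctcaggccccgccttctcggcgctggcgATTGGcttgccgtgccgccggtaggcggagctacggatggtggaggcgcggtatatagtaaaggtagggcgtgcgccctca
Fxyd1: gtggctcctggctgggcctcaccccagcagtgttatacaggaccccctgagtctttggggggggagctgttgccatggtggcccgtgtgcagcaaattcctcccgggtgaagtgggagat

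The motifs were searched on both strands. Clcn1 held 2 E-boxes (CANNTG, the site of myogenic factors) and 1 match to the MEF2 consensus, CTATAAATAG, which overlaps a TATA box (TATAAA). Over 32851 windows of the same length in the table, 40.2% held an E-box, 1.33% a MEF2 match and 6.34% a TATA box. Atp1b1 held 1 CCAAT box on the other strand (ATTGG), as did 21.3% of windows on either strand, and Fxyd1 held none of these motifs. The GC box (GGGCGG), present in 26.5% of windows, was found in none of the 3. These matches describe letters in the reference and not binding in these muscles.

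Kcnj11 encodes the pore-forming subunit of the KATP channel. Its probe set, 98787_at, measured 183.1 and 165.9 on the HSL-null arrays, against 134.9 and 125.4 on the wildtype arrays. Both HSL-null arrays were higher than both wildtype arrays, by 1.23-fold on the closest pair and 1.46-fold on the widest. The mean was 175 ± 12.2 in HSL-null and 130 ± 6.72 in wildtype (SD, n = 2 arrays), 1.34-fold higher in HSL-null with a log2 difference of 0.42 ± 0.089 (SE of duplicates). That difference was larger than the gaps between duplicates, which were 0.14 in HSL-null and 0.11 in wildtype. It fell short of the 1.5-fold rule and of a 1.3-fold rule, and it lay at the edge of the table, where the central 95% of probe sets above the filter ran from -0.40 to 0.41.

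**Figure D2:**
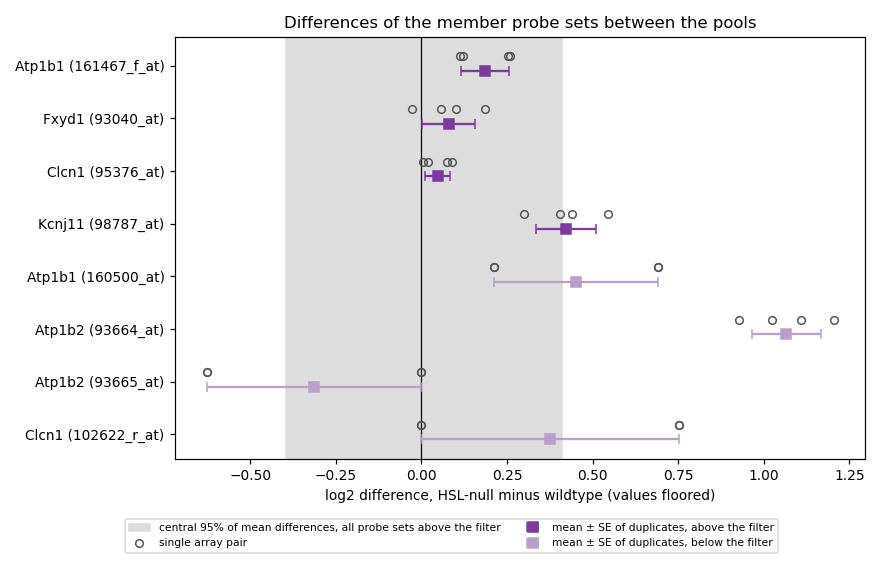
Log2 difference, HSL-null minus wildtype, of the 8 probe sets. Open circles are the 4 array pairs, squares the mean with the SE of the duplicates, and the grey band the central 95% of mean differences over 6211 probe sets above the filter (-0.40 to 0.41). Kcnj11 lies at the upper edge of the band, and the other 3 above the filter lie inside it. Atp1b2 (93664_at) lies beyond it at 1.07, as does the dim Atp1b1 probe set (160500_at) at 0.45. Both of these are below the filter, and no band was drawn for such probe sets.

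Atp1b2 (93664_at), Kcnj11 and the brighter Atp1b1 probe set kept this order of difference under every scaling and without any single array, while Fxyd1 and Clcn1, the lowest, changed places under some of these alternatives, quantile normalization and loess among them. Kcnj11 was at 0.39 with median centring, 0.44 with quantile normalization and 0.44 with cyclic loess, and between 0.35 and 0.49 when any single array was left out. The brighter Atp1b1 probe set was at 0.15, 0.21 and 0.21 with these scalings and between 0.12 and 0.26 without single arrays. The Atp1b2 probe set stayed between 0.98 and 1.16 under the same alternatives. Fxyd1 ranged from 0.016 to 0.14 and the bright Clcn1 probe set from 0.012 to 0.082, so that both remained above 0 but near it.

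**Figure D3:**
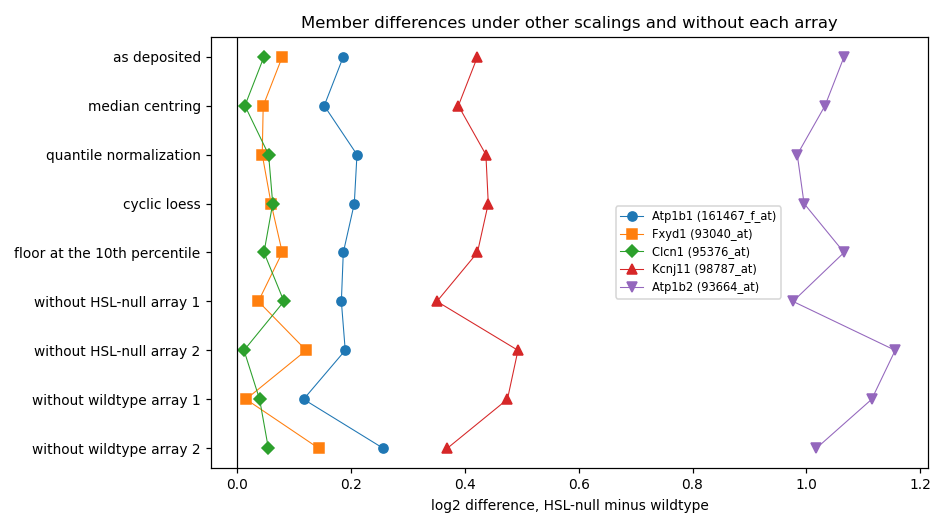
Log2 difference, HSL-null minus wildtype, of 5 probe sets (horizontal) with the values as deposited, under 3 other scalings, with a lower floor and without each array (vertical). Atp1b2 stays near 1, Kcnj11 between 0.35 and 0.49, and Fxyd1 and Clcn1 between 0.012 and 0.14.

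Some fibre-type markers and the controls for RNA quality also differed between the pools. Of 16 fast-fibre probe sets above the filter, 7 were higher on both HSL-null arrays and 0 lower, 5 were separated, and the median log2 difference was 0.097. The share without overlap in this list was 43.8%, all of it higher in HSL-null. Over all probe sets above the filter 40.6% did not overlap, with 19.5% higher and 21.1% lower, and 0.451% were separated. The summed intensity of that list, by the brightest probe set of each of its 12 genes, was 28454 and 27940 on the HSL-null arrays and 24814 and 22962 on the wildtype arrays. Myh4, the myosin of the fastest fibres, named after its values were seen, measured 1897 and 1782 on the HSL-null arrays, against 279 and 277 on the wildtype arrays. Its second probe set measured 27.1 and 32.9 on the HSL-null arrays, against 26.0 and 27.8 on the wildtype arrays, and overlapped. Of the 16 fast-fibre probe sets 9 overlapped, among them the brightest of Atp2a1 and of Tnnt3, at 0.053 and 0.044. The separated ones were of Myh4, Actn3 and Pvalb. Of 12 slow-fibre probe sets 3 were higher and 2 lower, or 41.7% without overlap, with a median log2 difference of 0.034. Of 5 Schwann cell and nerve probe sets above the filter 0 were higher and 1 was lower, or 20% without overlap. Below the filter a Sox10 probe set measured 11.1 and 19.8 on the HSL-null arrays, against 5.7 and 6.3 on the wildtype arrays. It was separated, at 1.31 ± 0.42. S100b was higher without overlap, at 0.41 ± 0.32, and the other probe sets of this list below the filter overlapped. The brighter Sox10 probe set, above the filter, overlapped at 0.20 ± 0.20. The Schwann cell and nerve list summed to 318 and 347 in HSL-null and 334 and 293 in wildtype. None of the fast-fibre, slow-fibre or Schwann cell probe sets was listed at 0 on all arrays. At or under the floor on all 4 arrays stood 4 of the 13 Schwann cell and nerve probe sets, 1 of the 18 fast-fibre and 0 of the 13 slow-fibre ones. The beta-actin control gave a 3′ to 5′ signal ratio of 0.816 and 0.823 in HSL-null, against 0.688 and 0.706 in wildtype, and the Gapdh control one of 0.922 and 0.912 in HSL-null, against 0.955 and 0.927 in wildtype. The part of fibre type, nerve content and RNA quality in the values of Atp1b2, Kcnj11 and Atp1b1 was not tested.

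Around these genes, 10 lists of the pump and of membrane excitability held 130 genes, 79 of them on the array. Of their 110 probe sets 43 were above the filter, and of these 11 were higher on both HSL-null arrays, 12 lower and 20 overlapping, with 0 separated. With median centring the split was 6 higher and 13 lower. Their median log2 difference was 0.016, beside -0.0021 over all 6211 probe sets. The share without overlap was 53.5%, beside 40.6% in the whole table. It was closer to the table under other scalings. The shares were 44.2% beside 40.9% with median centring, 48.8% beside 40.8% with quantile normalization and 46.5% beside 40.9% with cyclic loess.

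No value was used here for the catalytic alpha subunits. Atp1b3, a further beta subunit of the pump, measured 429.6 and 439.3 on the HSL-null arrays, against 419.3 and 422.3 on the wildtype arrays, a log2 difference of 0.046 ± 0.017. Fxyd5, another FXYD protein, was at -0.027 ± 0.12 and overlapped. Fxyd2, the FXYD protein of the kidney pump, lay below the filter at 17.2 and 31.1 in HSL-null, against 25.2 and 28.5 in wildtype, and overlapped too. With median centring the Atp1b3 difference was 0.012 and its arrays overlapped. The bright probe sets of Atp1b1 and Atp1b3 and 93664_at of Atp1b2 were thus higher on both HSL-null arrays with the values as deposited, by 0.046 to 1.07, while the other Atp1b2 probe set was not and Atp1b3 overlapped with median centring.

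The other KATP channel genes above the filter lay on the other side of 0, under each of the 4 scalings. Abcc9, which encodes the sulfonylurea receptor that assembles with Kcnj11 in striated muscle, measured 448.5 and 432.2 on the HSL-null arrays, against 466.0 and 468.8 on the wildtype arrays. Both HSL-null arrays were lower, with a log2 difference of -0.086 ± 0.027. Kcnj8, the alternative KATP pore of vascular smooth muscle, measured 83.2 and 71.0 on the HSL-null arrays, against 85.7 and 85.0 on the wildtype arrays, at -0.15 ± 0.11. Neither came near the 1.5-fold rule. Of the 12 genes of this list on the array, 4 were above the filter, with 0 higher, 2 lower and 2 overlapping. The share without overlap was thus 50%, beside 40.6% over all probe sets above the filter, where 21.1% were lower.

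Other potassium channels gave 3 probe sets higher, 0 lower and 3 overlapping with the values as deposited. That is 50% without overlap, beside 40.6% over all probe sets above the filter, where 19.5% were higher. Kcnh2, a delayed rectifier, was at 0.27 ± 0.19, Kcnn1, a small-conductance calcium-activated channel, at 0.24 ± 0.11 and Kcna5, a voltage-gated channel, at 0.078 ± 0.013, the last with overlap under median centring. Below the filter Kcne1, an accessory subunit, measured 16.0 and 15.0 on the HSL-null arrays, against 3.0 and 3.8 on the wildtype arrays, with both wildtype values under the floor. Kcnd3, a transient outward channel, measured 29.1 and 19.8 on the HSL-null arrays, against 10.7 and 9.1 on the wildtype arrays. Both were separated, as was Clcn5, an endosomal chloride transporter, at 9.4 and 10 in HSL-null, against 3.1 and 2.2 in wildtype, again under the floor. These were the 3 separated probe sets among the 67 of the lists that lay below the filter, where 2.38% of the whole table were separated. The other Clcn5 probe set, also below the filter, overlapped. It measured 4.6 and 14.5 on the HSL-null arrays, against 13.5 and 3.3 on the wildtype arrays.

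Of the 6 sodium channel genes on the array, 0 had a probe set above the filter. The brightest were Scn8a, a neuronal channel, at 7.5 and 14.7 in HSL-null, against 6.6 and 7.4 in wildtype, and Scn7a, a sodium-sensing channel, at 8.7 and 6.7 in HSL-null, against 2.5 and 7.4 in wildtype. Chloride channels and ClC transporters were split, with 3 probe sets higher, 4 lower and 6 overlapping out of 13. That is 53.8% without overlap, beside 40.6% over all probe sets above the filter. By their brightest probe sets Clcn3 was at 0.10 ± 0.059, with overlap under median centring, and Clcn7 at -0.13 ± 0.065. Both encode intracellular chloride-proton exchangers. The other Clcn3 probe sets above the filter ran from -0.021, with overlap, to 0.21. A dimmer Clcn7 probe set was at -0.56 ± 0.39, the lowest difference in the lists above the filter.

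The subunits of the voltage sensor of excitation-contraction coupling differed by little. Cacng1, its gamma subunit, was at 0.042 ± 0.010 and Cacna2d1, its alpha-2-delta subunit, at 0.13 ± 0.11, both higher on both HSL-null arrays except under median centring, where they overlapped. Of the ion exchangers, Slc12a4, a potassium-chloride cotransporter, measured 115.8 and 119.2 on the HSL-null arrays, against 140.8 and 151.7 on the wildtype arrays, at -0.31 ± 0.058. Sgk1, a kinase that raises the surface level of sodium pumps and channels in kidney epithelium, gave the highest difference in the lists above the filter. It measured 392.9 and 401.3 on the HSL-null arrays, against 297.3 and 269.0 on the wildtype arrays, a log2 difference of 0.49 ± 0.074 that fell short of the 1.5-fold rule. The membrane skeleton gene Sptbn1 was at 0.16 ± 0.018, and the ankyrin genes Ank1 and Ank3, whose products anchor membrane proteins, at -0.13 ± 0.10 and -0.28 ± 0.22. The Ank1 arrays overlapped with quantile normalization and with loess.

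**Figure D4:**
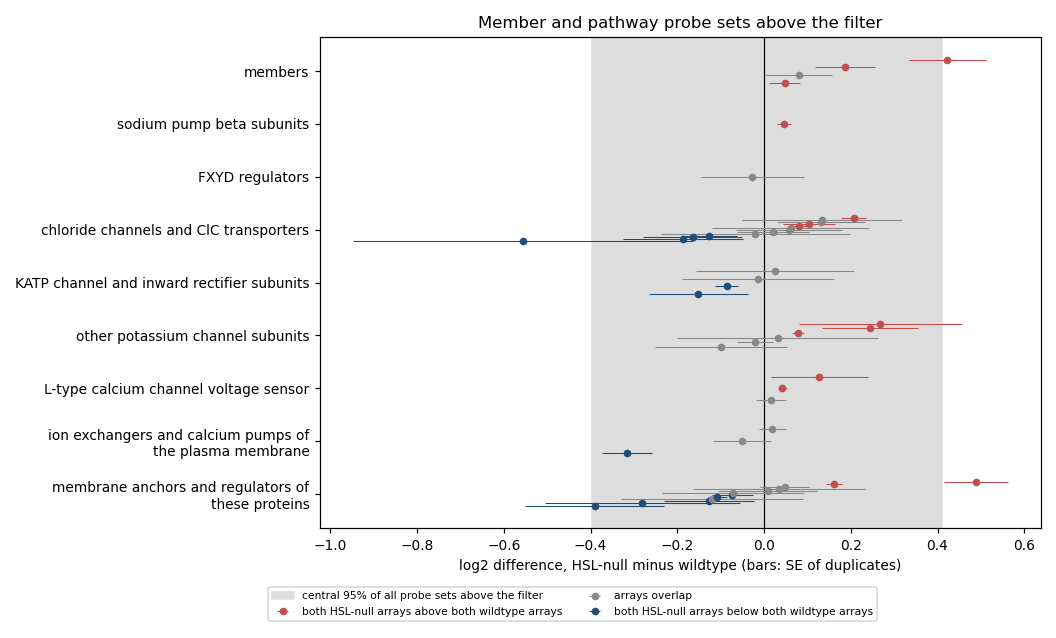
Log2 difference, HSL-null minus wildtype, of the member probe sets and of the 43 pathway probe sets above the filter, by list. Points are means, bars the SE of the duplicates, colours the array overlap, and the grey band the central 95% of all probe sets above the filter. Kcnj11, in the top row, and Sgk1, in the bottom row, reach past the upper edge of the band, and 1 chloride channel probe set past the lower.

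The genes with the most similar profile were sought by Euclidean distance of log2 values over the 4 arrays, each centred on its own mean, among 5648 probe sets with 1 symbol above the filter. Nearest to Kcnj11 were Golga7, at a distance of 0.054, and Acot1, at 0.058, which differed between the pools by 0.46 and 0.40. Golga7 measured 70.0 and 64.4 on the HSL-null arrays, against 51.8 and 46.3 on the wildtype arrays. Nearest to Atp1b1 were Cdkn2d (0.018) and Alad (0.019), to Fxyd1 Mcfd2 (0.019) and Gpn1 (0.022), and to Clcn1 Grina (0.0076) and Acvr2a (0.0077). These distances rest on 4 arrays of 2 pools, and many probe sets lie near any profile that varies little.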

How the data were processed

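RNA of soleus was measured on 4 arrays, as described above. The deposited values are 1 linear intensity per probe set and array, which the authors had already scaled: the mean of each array, computed here without the top and bottom 2% of its values, was 100. The sources used here name neither the software nor the background correction or scaling step, and no detection calls were used. Gene names came from the platform annotation, which gave several symbols for 396 probe sets and did not list 1237. Gene IDs of 10839 probe sets had a match among RefSeq genes (GRCm38.p6), whose symbols were used, and 66 control probe sets were left out.

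Intensities were floored, transformed to log2 and compared array by array. No p-value was computed, since each genotype is 1 pool. A gene on a list was represented by its brightest probe set in sums. The members, lists and rules were chosen with earlier results of these data known, so that none is independent support. All probe sets of the members were named, and in each list the separated genes, up to the 4 largest differences without overlap of a gene's brightest probe set, or the 2 brightest genes where there were none. Of the 7 marker lists, the results of white adipocyte, endothelium, smooth muscle and erythroid markers follow under the other observations. Alternatives were median centring, cyclic loess and quantile normalization (limma 3.58.1, R 4.3.3, with 0.1 in place of 0), another floor, another filter or none, other fold thresholds, leaving out single arrays, the array number as a block, and 1 probe set per gene. The scripts were checked on simulated data. Python 3.11.15, numpy 2.4.6, pandas 2.3.3 and matplotlib 3.10.9 were used. Precision is limited by the number of arrays.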

Additional observations from a re-analysis of the deposited data

How the results depend on the processing

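Of 72 differences of the 8 member probe sets under 9 alternatives, 64 moved by less than the SD of the duplicates, 8 moved by that SD or more, all on the 3 probe sets at or near the floor (160500_at, 93665_at and 102622_r_at), and 0 called ones reversed. With no filter, 1 member probe set was separated (Atp1b2, 93664_at) in place of 0 and 5 did not overlap in place of 3; without single arrays, with 2 array pairs left, 3 to 4 did not overlap and 0 were separated. Over all probe sets 28 were separated, 176 with no filter, 10 with the filter at the 75th percentile, 95 at 1.3-fold, 14 at 2-fold and 81 to 109 without single arrays. Of the pathway probe sets 23 did not overlap, 36 with no filter, 14 with the filter at the 75th percentile and 32 to 35 without single arrays. These were 53.5%, 32.7%, 53.8% and 74.4 to 79.5% of those tested, beside 40.6%, 29.8%, 43.9% and 68.9 to 71.2% in the whole table. Fewer array pairs or more probe sets tested raise such counts by construction. With the replicate block, which takes same-numbered arrays as pairs, 0 member probe sets were separated and 3 did not overlap. Among all probe sets above the filter, 35 were separated and 52.4% did not overlap under the block. The pathway probe sets without overlap numbered 24, or 55.8%, which is close to that share. Deviations of same-numbered arrays correlated at -0.086, and the numbers only name the duplicates. Signal near the floor limits Atp1b2, the second probe sets of Atp1b1 and Clcn1, and every sodium channel probe set.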

Other observations

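Some markers of cell types outside the muscle fibre differed between the pools. The share without overlap was 80% for white adipocyte, 83.3% for erythroid, 42.9% for smooth muscle and pericyte and 11.1% for endothelial probe sets. Over all probe sets above the filter it was 40.6%, with 19.5% higher and 21.1% lower in HSL-null. Of 5 white adipocyte probe sets above the filter, 0 were higher and 4 lower on both HSL-null arrays, with a median log2 difference of -0.35, and the list, which includes Lipe itself, summed to 414 and 416 in HSL-null, against 610 and 601 in wildtype. Of 9 endothelial probe sets 0 were higher and 1 lower, with a median of -0.082. Of 7 smooth muscle and pericyte probe sets 2 were higher and 1 lower (median 0.040), and of 6 erythroid probe sets 3 were higher and 2 lower (median 0.062). The erythroid list shares Ank1 with the membrane anchors above.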
